A study of Mus musculus with 9 samples.

Results

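The cytoplasmic ribosome is built from a small and a large subunit, each a scaffold of ribosomal RNA clad in many proteins, and nearly every one of these proteins is encoded by a single active gene. Ribosomal protein mRNAs are among the most abundant of a dividing cell, and their 5′ ends carry a terminal oligopyrimidine (TOP) tract, an unbroken run of C and T that begins at the first transcribed base. The kinase mTORC1, which the Tsc1-containing complex restrains, controls how well TOP mRNAs are translated, so the level of these mRNAs and the output of protein from them are separate quantities. The arrays measure the first of these.

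The genes described here are the 70 cytoplasmic ribosomal protein genes with a single-gene probe set, of 17097 genes measured in all, chosen by symbol (Rpl or Rps with a number, the stalk genes Rplp0, Rplp1 and Rplp2, and Rpsa and Fau), without pseudogenes, ribosomal S6 kinases and Rpl7l1. Each gene was read from its brightest probe set. They comprise 25 small subunit proteins, 38 large subunit proteins, 3 stalk proteins and 4 paralogs (Rpl3l, Rpl22l1, Rpl39l and Rps27l), which are close copies of a standard subunit protein. Rpl10l, Rpl26l1, Rps4l, Rpl5, Rps27 and Rps27a were not analysed here.

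Expression was compared between 4 WT and 5 Tsc1-/- samples of OVA-specific CD8+ T cells, with 1 array per sample. All mice were on the C57BL/6 background and homozygous for a floxed Tsc1 allele; WT mice lacked cre, and Tsc1-/- mice carried cre under Granzyme B, a gene that effector T cells switch on. All were infected with Listeria monocytogenes, and the cells were sorted from the spleen 9 days later. The cre transgene and the loss of Tsc1 go together in this design and cannot be told apart. Whether every sample stands for its own mouse is not stated in the labels, and the p-values cover only the spread among the 9 arrays, which may be technical.

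The sorted cells carried the markers of their label, with Cd8a at a log2 level of 12.08 in WT and 12.10 in Tsc1-/- and Cd3e at 11.81 and 11.82. RNA of other spleen cells was also present: the mean of 12 macrophage and monocyte markers read 6.70, 6.87, 6.78 and 6.05 on the WT arrays and 5.83 to 6.21 on the Tsc1-/- arrays, so WT replicate 4 lay within the Tsc1-/- range. Of these markers 11 had a negative difference and 0 passed (limma, adjusted p under 0.05, against 1.28% of all genes), with a median difference of -0.54. C1qa and Lyz2, which had the most negative differences of the list, read 7.08 and 8.84 in WT against 6.12 and 7.80 in Tsc1-/-. All 9 B cell markers were also lower in the mean, the list reading 5.42 to 6.00 in WT and 5.18 to 5.66 in Tsc1-/-. Dendritic cell markers (9 of 9 below 0, median -0.39), neutrophil markers (5 of 5, -0.36) and naive T cell markers (2 of 3, -0.43) also had negative medians, with 0 passing. The mean of 9 CD8 T cell markers was 10.99 to 11.07 in WT and 11.08 to 11.17 in Tsc1-/-, higher on every Tsc1-/- array, and 1 of them, Gzmb, passed (0.58, limma adjusted p = 0.0339). The median difference of these 9 markers was only 0.02, with 3 below 0. Gzmb and Prf1 (0.30) had the largest differences, so the higher mean does not stand for the list as a whole.

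To show what the 5′ ends of these genes look like, the stretch around the pyrimidine tract nearest to the annotated start is given for the 4 genes with the most negative difference, for the 4 with the most positive difference and for Rps6, whose protein is the classical substrate of the S6 kinases downstream of mTORC1. Sequences are from RefSeq, build GRCm38.p6, 30 bases each, written 5′ to 3′ on the strand of the gene, with the tract (C followed by at least 7 bases that are each C or T) in capitals.

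The 4 with the most negative difference:
Rpl12, chr2:32961732-32961761, plus strand: ggaggaggcaacggtgcaaCTTTCTTCggt
Rpl39l, chr16:10170191-10170220, plus strand: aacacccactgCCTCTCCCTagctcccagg
Rpl13a, chr7:45128722-45128751, minus strand: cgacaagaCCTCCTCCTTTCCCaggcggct
Rpl36a, chrX:134585672-134585701, plus strand: cggctctagCCTCTCTCTTTCCgagctgct

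The 4 with the most positive difference, and Rps6:
Rps27l, chr9:66946063-66946092, plus strand: actcctctccaCTCCTCCCCgccgcctcta
Rpl14, chr9:120571501-120571530, plus strand: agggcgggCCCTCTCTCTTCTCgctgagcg
Rpl41, chr10:128549119-128549148, minus strand: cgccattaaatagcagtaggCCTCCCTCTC
Rpl35, chr2:39005115-39005144, minus strand: gccccgCCCTTTCCTCTTTCTCTCgaacca
Rps6, chr4:86857349-86857378, minus strand: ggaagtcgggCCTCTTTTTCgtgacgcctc

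Both ends of the ranking hold such tracts, of 8 to 14 bases in the first set and 9 to 18 in the second, while that of Rps6 has 10. The tract of Rpl12 begins at base 40 of the annotated transcript and that of Rps6 at the base just before its start. The tract of Rpl41 begins at base 41 and runs to the end of the listed sequence. Those of Rpl13a and Rpl36a begin at bases 3 and 28, and those of Rpl14 and Rpl35 begin 8 and 7 bases before the start. The tracts of Rpl39l and Rps27l begin 26 and 12 bases before the start and end before it. These stretches are therefore not shown to be TOP tracts, and annotated starts need not be the starts used in these cells. Promoters (250 bases before to 50 after the start) were listed for 56 of the 70 genes, and for genes with several starts the first listed was taken. A tract within 50 bases of the start was found in 47 of these 56 (83.9%), against 28.7% of the 27025 genes listed. The genes with a tract had a median difference of -0.07 and the 9 without one of -0.09. The ETS-type core CGGAAG, searched on both strands over all 300 bases, was found in 39 (69.6%, against 17.2% of all promoters) and the E-box CACGTG, a recognition site of Myc, likewise in 5 (8.93% against 7.24%). These 3 patterns were chosen after the sequences had been seen and describe the promoters only. On the opposite strand the ETS-type core can share letters with a tract.

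Ribosomal protein mRNAs read slightly lower in Tsc1-/- than in WT, by a median of -0.08 on the log2 scale, or 94.6% of the WT level, against a median of -0.0063 over all genes. The difference was under 0 for 63 of the 70 genes (90.0%), where 51.8% of all genes were under 0. With arrays centred on their medians the values were -0.04 for the 70 genes, with 53 below 0, and 0.04 for all genes. The gap of -0.07 between them cannot change with centring, which shifts all genes of an array alike. No gene passed by itself: 0 of 70 had an adjusted p under 0.05 (limma, Benjamini-Hochberg over all genes), where 1.28% of all genes passed (0.971% higher and 0.31% lower). Without adjustment, limma's p was under 0.05 for 4 lower (5.71%, against 7.34% of all genes) and 1 higher gene (9.83% of all genes). Yet the genotypes did not overlap, with every Tsc1-/- array below every WT array, in 20 of the 70 genes (28.6%), against 2.88% of all genes. Separation in either direction was common among bright genes. At a level of 12 or above it was seen in 19 of 53 other genes (2 lower and 17 higher). In the same range it was seen in 16 of 57 ribosomal protein genes, all lower. With a variance trend and robust estimation limma called 4 lower and 1 higher, and 3.98% of all genes. The only gene of the 70 whose Tsc1-/- arrays were all above WT was Rps27l, while 5.08% of all genes were so. In bulk RNA, fewer cells that express a gene and less RNA per cell cannot be told apart.

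**Figure D1:**
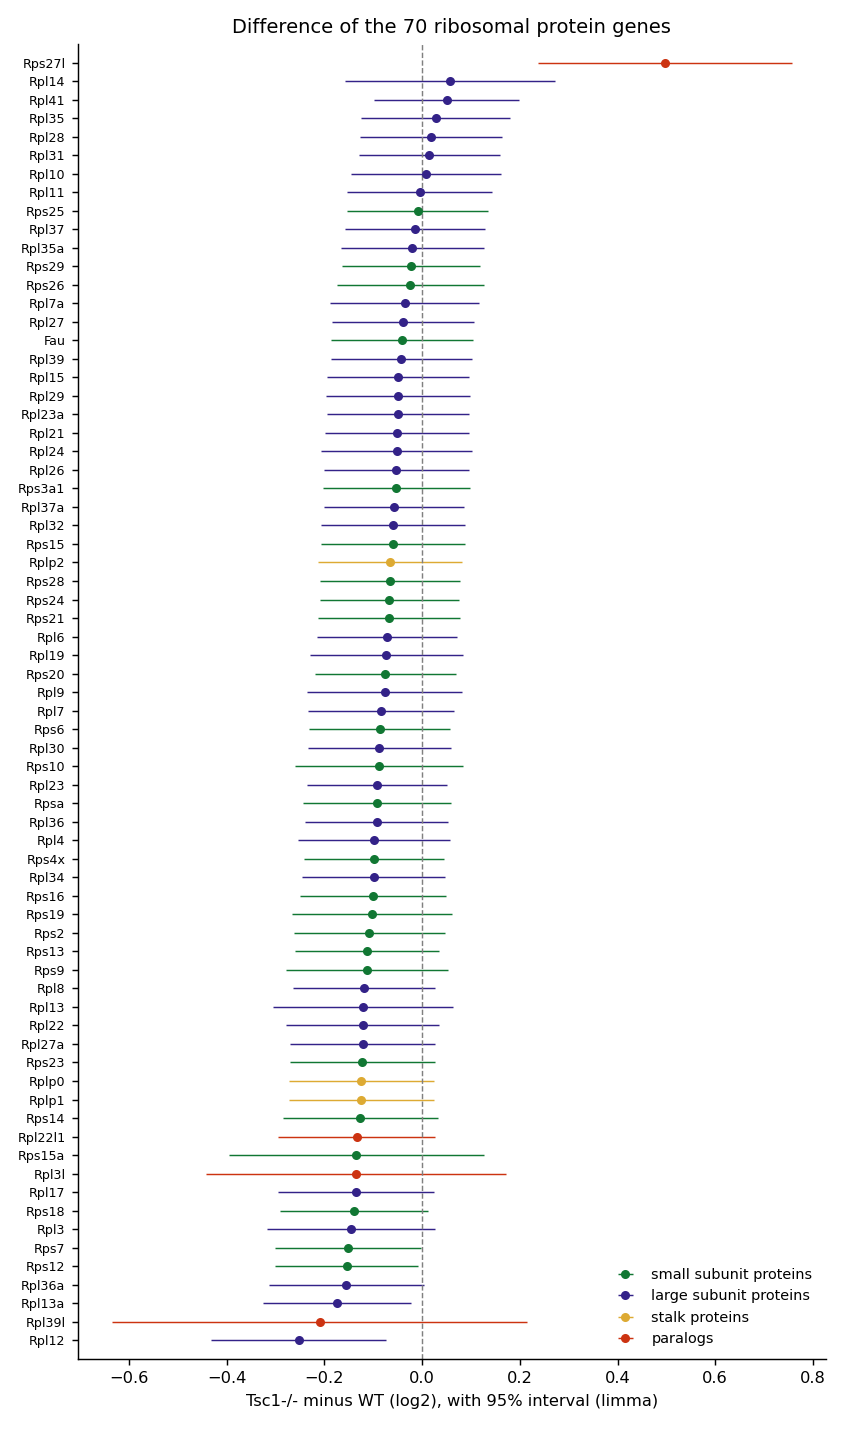
Difference of each of the 70 ribosomal protein genes between 5 Tsc1-/- and 4 WT arrays on the log2 scale (x axis), ordered by size, with limma's 95% interval as bars and the class of the protein as colour. Most points lie between -0.15 and 0, and Rps27l stands apart at 0.50.

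The shift was shared by the arrays of a genotype. The mean level of the 66 genes without the paralogs was 12.40, 12.43, 12.42 and 12.37 in WT replicates 1 to 4 and 12.31, 12.31, 12.33, 12.32 and 12.36 in Tsc1-/- replicates 1 to 5. All 5 Tsc1-/- arrays thus lay below all 4 WT arrays, and the gap between the closest pair, WT replicate 4 and Tsc1-/- replicate 5, was small. The median of all probe sets was also lower on every Tsc1-/- array (5.97 to 6.02, against 6.03 to 6.05 in WT). Relative to its own array's median, Tsc1-/- replicate 5 lay above WT replicate 4. The full separation of the 66-gene mean therefore does not hold after median centring. For the 38 large subunit genes alone this pair was level, at 12.40 each. Of all 70 genes, 56, 59, 60 and 44 were above their own 9-array mean in WT replicates 1 to 4, and 13, 6, 21, 12 and 33 in Tsc1-/- replicates 1 to 5. Within a genotype the 66 genes varied together only loosely, as the median correlation of their deviations from the group mean was 0.23 over 2145 pairs and 9 arrays that they all share.

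**Figure D2:**
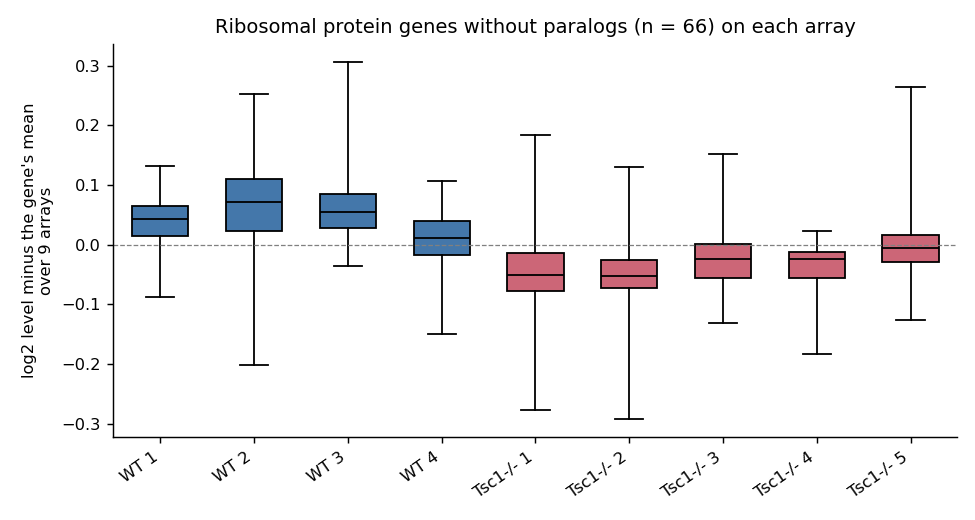
Log2 level of each of the 66 ribosomal protein genes without paralogs minus its mean over the 9 arrays (y axis), for each array (x axis; WT blue, Tsc1-/- red). Boxes span the quartiles with the median as a line and whiskers reach the lowest and highest gene; the medians are above 0 on the 4 WT arrays and below 0 on the 5 Tsc1-/- arrays.

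Among the small subunit proteins, all 25 had a negative difference (median -0.09). In 9 of them (36.0%, against 2.88% of all genes) the genotypes did not overlap, all lower in Tsc1-/-. Rps12, a protein of the small subunit's head, read 11.63, 11.68, 11.73 and 11.66 in WT and 11.54, 11.53, 11.49, 11.49 and 11.56 in Tsc1-/-. Every Tsc1-/- value was below the lowest WT value, a difference of -0.15 (SE 0.07; limma adjusted p = 0.268; exact permutation p = 0.00794, the smallest that 4 against 5 arrays can give). Rps7, which can bind the p53 inhibitor Mdm2, differed by the same -0.15 (SE 0.07; limma adjusted p = 0.286), at 12.11 to 12.23 in WT and 11.98 to 12.08 in Tsc1-/-.

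Rps6 itself read 12.95, 13.04, 13.02 and 13.01 in WT and 12.93, 12.90, 12.90, 12.91 and 12.95 in Tsc1-/-. The genotypes did not overlap, but the lowest WT and the highest Tsc1-/- array were nearly level, and the difference was -0.09 (SE 0.07; limma adjusted p = 0.546; exact permutation p = 0.00794). Its further probe sets, much dimmer at 8.48 and 5.63, differed by -0.16 and 0.21 with overlap. The tightest genes were also in this subunit: Rps29 read 13.28, 13.29, 13.28 and 13.30 in WT and 13.29, 13.25, 13.27, 13.27 and 13.25 in Tsc1-/-, with overlap and a pooled SD within genotypes of 0.014. Rps24, with a pooled SD of 0.017, read 13.03, 13.01, 13.01 and 13.01 in WT and 12.93, 12.94, 12.98, 12.94 and 12.96 in Tsc1-/-. For Rps24 a difference of only -0.07 (SE 0.07; limma adjusted p = 0.650) separated the genotypes. The small subunit gene furthest from this brightness was Rps15a, whose probe set was dim at 5.60 and whose genotypes overlapped (difference -0.13, limma adjusted p = 0.615).

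Large subunit proteins had a median difference of -0.06, with 32 of 38 below 0. The genotypes did not overlap in 9 (23.7%, against 2.88% of all genes), all of these lower in Tsc1-/-. Rpl12, which forms the base of the stalk that recruits translation factors, had the most negative difference of the 70 genes. It read 11.77, 11.90, 11.83 and 11.70 in WT and 11.67, 11.37, 11.57, 11.55 and 11.59 in Tsc1-/-. All Tsc1-/- arrays were below WT, with replicate 2 the lowest, at a mean of 83.9% of the WT level (difference -0.25, SE 0.08; limma adjusted p = 0.138; exact permutation p = 0.0159).

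Rpl13a, a large subunit protein that also acts in an interferon-induced brake on translation, read 12.06, 12.17, 12.06 and 12.02 in WT and 11.88, 11.89, 11.90, 11.88 and 11.97 in Tsc1-/-. The groups were separate, with a difference of -0.17 (SE 0.07; limma adjusted p = 0.223; exact permutation p = 0.00794). Rpl36a read 11.77, 11.76, 11.84 and 11.65 in WT and 11.66, 11.53, 11.56, 11.65 and 11.61 in Tsc1-/-. Here WT replicate 4 lay within the Tsc1-/- range, and the difference was -0.16 (SE 0.07; limma adjusted p = 0.302; exact permutation p = 0.0159).

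The large subunit also held 6 genes with a positive difference, namely Rpl10, Rpl31, Rpl28, Rpl35, Rpl41 and Rpl14, from 0.01 to 0.06. Rpl41, the shortest ribosomal protein and the brightest gene of the 70, read 13.39, 13.40, 13.50 and 13.50 in WT and 13.49, 13.49, 13.50, 13.50 and 13.52 in Tsc1-/-. WT replicates 3 and 4 were level with Tsc1-/-, and only WT replicates 1 and 2 were lower (difference 0.05, 95% interval -0.10 to 0.20). Rpl35 read 12.73, 12.68, 12.82 and 12.82 in WT and 12.77, 12.78, 12.86, 12.76 and 12.78 in Tsc1-/-, with overlap (difference 0.03, 95% interval -0.13 to 0.18). Its 4 probe sets differed by -0.05 to 0.03, so their sign was mixed. Rpl14, seen only by a dim probe set, read 7.31, 7.35, 7.38 and 7.39 in WT and 7.57, 7.37, 7.27, 7.21 and 7.66 in Tsc1-/-, which lay on both sides of WT (difference 0.06, 95% interval -0.16 to 0.27).

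Rpl11 binds Mdm2 when ribosome assembly is disturbed and so links the ribosome to p53. It differed by only -0.0050 (95% interval -0.15 to 0.14), while a much dimmer Rpl11 probe set, at 6.89, differed by 0.17 with overlap. On the list of ribosomal proteins linked to p53 control, 5 of 7 genes were measured and 0 passed (limma, against 1.28% of all genes). Of these, 4 had a negative difference, and that of Rps27l was 0.50.

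**Figure D3:**
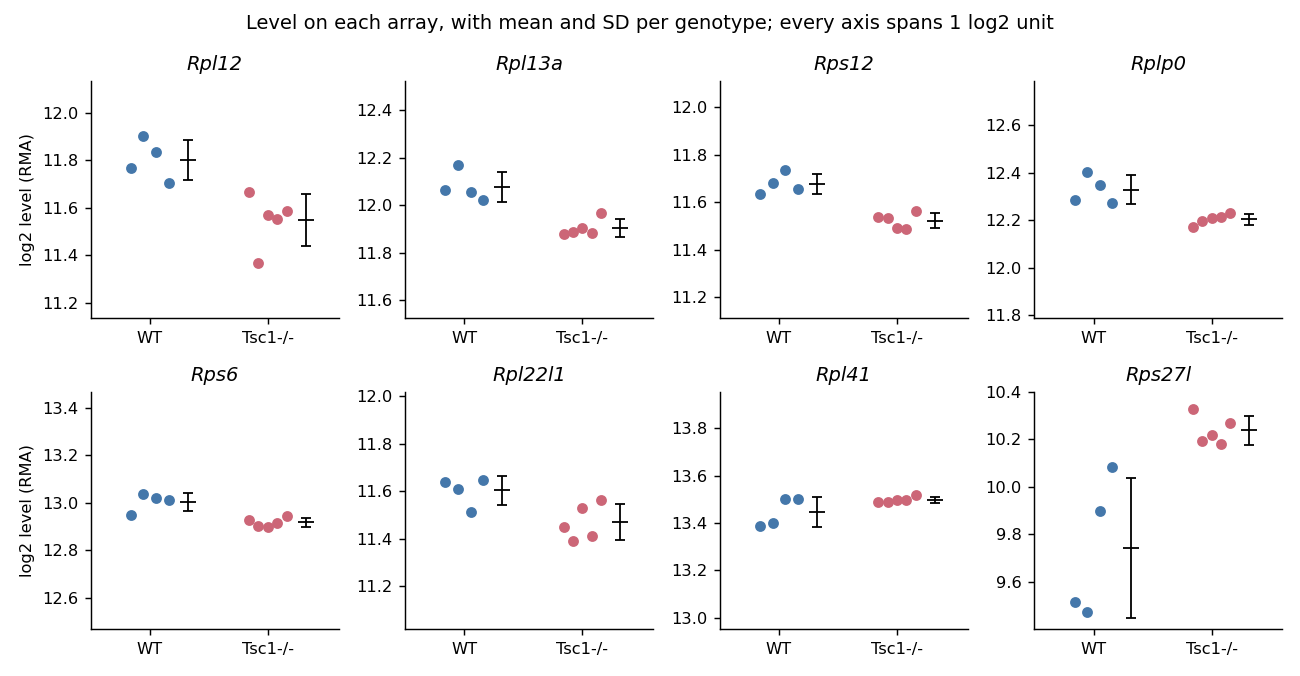
Log2 level of 8 ribosomal protein genes on each array (points; WT blue, Tsc1-/- red), with the mean and SD of each genotype in black; every y axis spans 1 log2 unit. Rpl12, Rpl13a, Rps12, Rplp0 and Rps6 are lower on all Tsc1-/- arrays, Rpl22l1 and Rpl41 overlap, and Rps27l is higher on all Tsc1-/- arrays.

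The stalk proteins form the flexible arm of the large subunit, in which Rplp0 anchors copies of Rplp1 and Rplp2. Rplp0 read 12.29, 12.40, 12.35 and 12.27 in WT and 12.17, 12.20, 12.21, 12.21 and 12.23 in Tsc1-/-, and Rplp1 read 12.55, 12.55, 12.55 and 12.47 against 12.40, 12.34, 12.46, 12.39 and 12.42. Both genes were lower on every Tsc1-/- array, each by -0.12 (SE 0.07; limma adjusted p = 0.377 and 0.376; exact permutation p = 0.00794 and 0.0159). Rplp2 read 13.30, 13.37, 13.37 and 13.27 in WT and 13.26, 13.23, 13.27, 13.27 and 13.29 in Tsc1-/-. Its groups overlapped at WT replicate 4 (difference -0.07, SE 0.07; limma adjusted p = 0.668; exact permutation p = 0.0159).

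The paralogs had no common direction. Rps27l, a p53-inducible copy of Rps27, read 9.51, 9.47, 9.90 and 10.08 in WT and 10.33, 10.19, 10.22, 10.18 and 10.27 in Tsc1-/-. The Tsc1-/- arrays lay close together and above all WT arrays, of which replicates 1 and 2 were the lowest and replicate 4 came closest to Tsc1-/-. The difference was 0.50 (SE 0.12), or 141% of the WT level, with an adjusted p of 0.0605 (limma; exact permutation p = 0.00794), just short of the threshold. All 3 of its probe sets agreed, at 0.50, 0.48 and 0.53, each without overlap, although 2 of the 3 are of a type that can detect related sequences, and Rps27 itself was not analysed here. Without WT replicate 4 the difference was 0.61 and passed (limma adjusted p = 0.0212), in a fit that called 2.67% of all genes. It did not pass with any other single array left out. The difference was 0.42 without WT replicate 1 (limma adjusted p = 0.187) and 0.41 without WT replicate 2 (limma adjusted p = 0.174). With the level of macrophage markers in the model the Rps27l difference was 0.25 (SE 0.16; limma adjusted p = 0.638), and with that of B cell markers 0.33 (limma adjusted p = 0.451). Neither of these marker settings called any gene at all, so the lack of a call is not particular to Rps27l.

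Rpl22l1, which can replace Rpl22 in the ribosome and whose expression Rpl22 holds down, read 11.64, 11.61, 11.51 and 11.65 in WT and 11.45, 11.39, 11.53, 11.41 and 11.56 in Tsc1-/-. WT replicate 3 lay within the Tsc1-/- range, and the difference was -0.13 (SE 0.07; limma adjusted p = 0.377; exact permutation p = 0.0476). Rpl22 differed by nearly as much, -0.12 (SE 0.07; limma adjusted p = 0.414), so the pair differed in the same direction. A dimmer Rpl22 probe set, at 6.68 and picked here after its value was seen, differed by -0.56 with overlap (limma adjusted p over all probe sets 0.0798).

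Rpl39l and Rpl3l, known for expression in testis and in striated muscle, were dim. Rpl39l read 7.06, 6.37, 6.18 and 6.58 in WT and 6.44, 6.12, 6.56, 6.72 and 5.84 in Tsc1-/-, the widest spread of the 70 genes (difference -0.21, 95% interval -0.63 to 0.22). Rpl3l, the lowest of all, read 4.68, 4.84, 4.25 and 4.57 in WT and 4.28, 4.68, 4.17, 4.73 and 4.40 in Tsc1-/- (difference -0.14, 95% interval -0.44 to 0.17). In both the genotypes overlapped widely, so no difference was detectable.

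Brightness went with the size of the difference. The level of the 70 genes ranged from 4.51 to 13.48 with a median of 12.47, and the brightest probe set of each array read 13.57 to 13.61. The 8 genes between 11 and 12 had a median difference of -0.14, the 24 between 12 and 12.5 of -0.10, the 24 between 12.5 and 13 of -0.06 and the 9 at 13 or above of -0.07. Across the 65 genes above 11 the Spearman correlation of level and difference was 0.57, which describes genes that share the same arrays. The part of signal saturation in this was not tested. The other genes measured at 12 or above went the other way, with 16 of 53 below 0 and a median of 0.09, while 52 of the 57 ribosomal protein genes in this range were below 0 (median -0.07). Removing from each array the trend of all genes on level gave a median of -0.09 for the 70 genes, with 64 below 0.

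**Figure D4:**
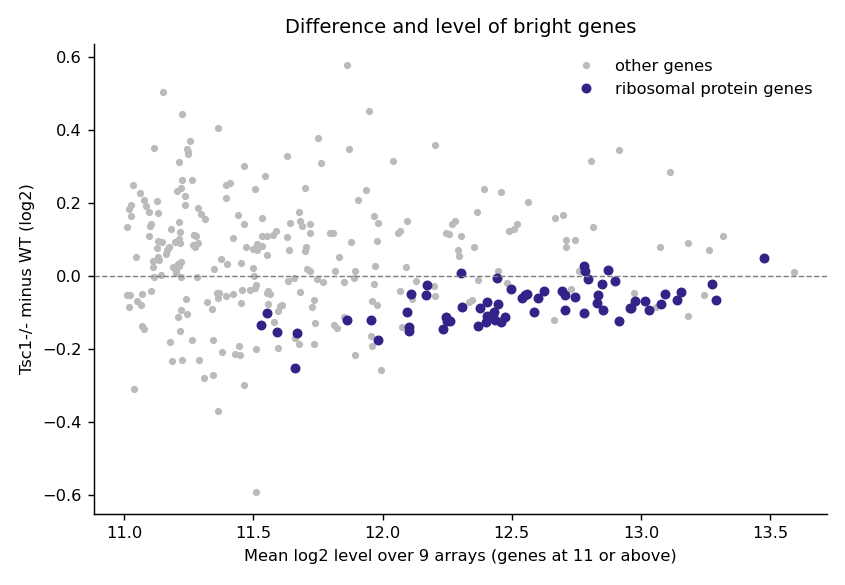
Difference between Tsc1-/- and WT (y axis, log2) against the mean log2 level over 9 arrays (x axis) for genes at 11 or above, with ribosomal protein genes in dark blue and other genes in grey. The ribosomal protein genes form a narrow band mostly between -0.15 and 0.05, and other genes scatter more widely on both sides of 0.

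The direction was less uniform among single probe sets. The 70 genes had 131 probe sets, of which 109 were below 0 and 0 passed over the 28898 single-gene probe sets. Of the 33 genes with several probe sets, 23 had all of them on one side of 0 and 10 had them on both. The 97 probe sets at a level of 10 or more were below 0 in 88 cases (median -0.07), and the 34 dimmer ones in 21 (median -0.07). Ribosomal protein genes have many processed pseudogenes, and 18 of the 70 genes rested on probe sets of type x and 5 on type s, which may detect related sequences too. By type, 15 of 18 on type x were below 0 (median -0.07), 4 of 5 on type s (-0.02), 33 of 35 on type a (-0.07) and 11 of 12 on the plain type (-0.12), of which Rpl39l, Rpl3l, Rps15a and Rpl14 are dim.

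Of 16 other genes with TOP mRNAs, 13 were measured, with a median difference of -0.14 and 12 below 0. None passed (limma, 0 of 13, against 1.28% of all genes). At an unadjusted p under 0.05 there were 5 lower (38.5%, against 7.34% of all genes), and in 7 the Tsc1-/- arrays were all below WT (53.8%, against 2.88%). Eif4b, an initiation factor that helps unwind mRNA, read 9.87, 9.98, 9.86 and 9.70 in WT and 9.44, 9.61, 9.67, 9.54 and 9.69 in Tsc1-/-. It was lower on every Tsc1-/- array, with a difference of -0.26 (SE 0.09; limma adjusted p = 0.139). The elongation factor subunit Eef1b2 differed by -0.21 (SE 0.07; limma adjusted p = 0.159) and also did not overlap.

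The genes that control TOP mRNA translation showed no common direction. Of 12 listed, 10 were measured, 5 above and 5 below 0, and 0 passed (limma, against 1.28% of all genes). At an unadjusted limma p under 0.05 there were also 0, against 17.2% of all genes. Mtor, the kinase itself, differed by -0.18 (SE 0.09; limma adjusted p = 0.299) and Pdcd4, an inhibitor of initiation that S6 kinase marks for destruction, by -0.19 (SE 0.09; limma adjusted p = 0.307), while Larp1, which binds TOP ends, read 9.64 in both genotypes.

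Chaperones and import factors of ribosomal proteins were divided as well, with 14 of 17 measured, 9 above and 5 below 0, and 0 past the threshold (limma; unadjusted p under 0.05 in 1 higher and 2 lower genes, or 21.4%, against 17.2% of all genes). Bccip, a chaperone of a ribosomal protein, read 8.54, 8.61, 8.48 and 8.32 in WT and 8.76, 8.80, 8.77, 8.69 and 8.75 in Tsc1-/-, higher on every array (difference 0.27, SE 0.08; limma adjusted p = 0.104). Nop53, a factor of large subunit assembly, read 11.18, 11.43, 11.08 and 11.15 in WT and 10.80, 10.85, 10.90, 10.88 and 11.07 in Tsc1-/-, lower on every array (difference -0.31, SE 0.09; limma adjusted p = 0.106).

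The level of ribosomal protein mRNAs was set beside the markers of other spleen cells. WT replicates 1 to 3, the 3 arrays with the most macrophage marker signal, also had the highest mean of the 66 genes. Within WT the arrays ranked alike in both, but within Tsc1-/- they did not. Tsc1-/- replicate 2 had the highest marker level of its genotype (6.21) and the lowest mean of the 66 genes (12.31). Tsc1-/- replicate 5 had a marker level of 5.93 and the highest mean of its genotype (12.36). WT replicate 4, whose marker level of 6.05 lay within the Tsc1-/- range of 5.83 to 6.21, read 12.37 in the 66 genes, against 12.31 to 12.36 in Tsc1-/-. With the level of macrophage markers in the model the median difference was -0.06 with 60 of 70 below 0, and with the B cell marker level -0.07 with 65 below 0. Neither setting called any of the 70 genes, nor any gene at all. The part of these cells in the difference was not tested beyond these values.

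**Figure D5:**
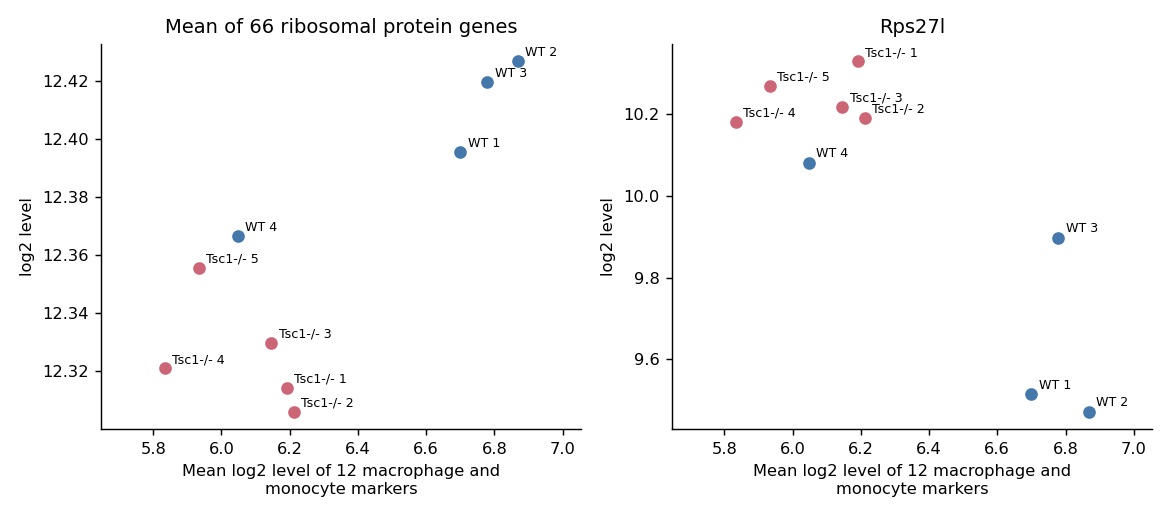
Mean log2 level of 66 ribosomal protein genes (left) and log2 level of Rps27l (right) on each array against the mean log2 level of 12 macrophage and monocyte markers (x axis; WT blue, Tsc1-/- red). WT replicates 1 to 3 lie apart at marker levels of 6.70 to 6.87, and WT replicate 4 lies at the edge of the Tsc1-/- arrays in both plots.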

How the data were processed

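Total RNA (12 ng per sample, per the labels' protocols) was amplified and labelled with biotin and hybridised to 1 array per sample, and no batch is named in the labels. The authors deposited log2 levels of probe sets from RMA, a method that quantile normalizes arrays, and the submitters' processing notes list Partek 6.5 too. Its options are not stated in these sources. Levels are therefore relative to the whole array, and bright probe sets may be compressed. Of 45037 probe sets, 28898 had 1 gene in the platform annotation, and symbols were updated through Entrez identifiers (28689 matched). The brightest probe set stood for each gene. The test was limma 3.58.1 (lmFit, then eBayes; R 4.3.3), fitting genotype alone, two-sided and Benjamini-Hochberg adjusted over 17097 genes, threshold 0.05. Single genes were also given an exact two-sided permutation test over all 126 splits of the arrays. The number of arrays limits the precision. The script was tested on simulated data.

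The members and lists were chosen with earlier results of these data known, and the list's direction is therefore no independent evidence. Genes given on every array were the 4 most positive and 4 most negative differences, the 4 smallest p, the paralogs, the stalk genes, Rps6, and the extremes of level and spread. Rpl11, Rps15a, Rpl22, Larp1, the marker genes and the genes with a positive difference were named after their values were seen. From the other lists the 2 genes with the smallest p were named. Alternatives covered probe set choice, dim genes, normalization, level and length trends (loess, span 0.3), variance and array weights, the replicate number, marker levels and left-out arrays. Figures were drawn in Python 3.11.15.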

Additional observations from a re-analysis of the deposited data

Results flagged for a closer look

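A single array stood apart within its genotype in 4 of the 38 groups looked at. The measure is the gap to the nearest array as a share of the group's range. Its limit is passed by chance in about 1 in 20 independent groups. These groups share the same arrays and some genes were chosen for their spread, so that rate does not apply to them. Rplp1 was low in WT replicate 4 (12.47, against 12.55 on the other 3 arrays; gap 0.975 of the range). Rps24 was high in WT replicate 1 (13.03, against 13.01 on the others; gap 0.899). Rpl13a was high in Tsc1-/- replicate 5 (11.97, against 11.88 to 11.90; gap 0.730), and Rpl35 in Tsc1-/- replicate 3 (12.86, against 12.76 to 12.78; gap 0.754).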

How the results depend on the processing

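The median difference of the 70 genes stayed below 0 in the 21 of 23 alternative settings that could change it, from -0.10 to -0.04. It moved by more than the spread between replicates with quantile normalization (-0.058), median centring (-0.037, where the median of all genes was 0.037, with the gap of -0.074 between them one that centring cannot change), the macrophage marker level as a covariate (-0.061) and removal of the trend on level and gene length (-0.10). With one array left out in turn it lay between -0.09 and -0.07, with 61 to 65 genes below 0, 0 called lower, and 0 called higher except 1 without WT replicate 4. The 1 gene called higher was Rps27l, in a setting that called 2.67% of all genes. Rps27l was also the 1 called higher with dim genes left out (8.31% of all genes called), median centring (2.56%) and array weights (2.72%). The same held with a variance trend and robust estimation (3.98%) and at an adjusted p under 0.1 (738 of 17097 genes). It held too with WT replicate 4 and Tsc1-/- replicate 1 left out together (2.30%). The variance trend also called 4 lower (Rpl12, Rpl13a, Rps12 and Rps7, adjusted p = 0.0257, 0.0286 and 0.0465 for the first 3, limma), where that setting called 3.98% of all genes. With probe sets not joined, 109 of 131 were below 0.

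Differences near 0 changed sign: Rpl35 with the mean of probe sets (-0.0037), the macrophage (-0.0077) and the B cell marker level (-0.0030), Rps29 with median centring (0.021, below the shift of all genes), and Rpl14 with the replicate block (-0.00255) and with single arrays left out (-0.00255 without Tsc1-/- replicate 5, up to 0.11 without replicate 4). The cause was not tested. Same-numbered arrays of both genotypes did not deviate together (correlations of -0.10, 0.09, -0.07 and 0.02 over all genes). The numbers thus gave no sign of a pairing, though these values cannot exclude one. With the replicate block, which leaves Tsc1-/- replicate 5 without a partner, the median was -0.09, 64 genes were below 0 and 0 were called, as were 0 of all genes. Signal over background was not analysed here. The pooled SD within genotypes was 0.25 for the dim Rpl3l and 0.017 for the bright Rps24.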
